A study of Saccharomyces cerevisiae with 21 samples.

Results

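The genes described here encode the enzymes that build ergosterol in budding yeast, the enzymes that esterify or acetylate sterols, 2 transcription factors of the pathway and 1 sterol-binding protein. They were chosen by name, from known function, and 32 of the 6407 genes in the table of RNA levels belong to the set. By role, 9 act in the mevalonate pathway, 3 between farnesyl diphosphate and lanosterol, 13 between lanosterol and ergosterol, 4 in esterification, acetylation or deacetylation, 2 in regulation and 1 in sterol binding.

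RNA was sequenced from 21 cultures of Saccharomyces cerevisiae in the W303 background, in 7 groups of 3 taken on separate days, from rich medium (YPD) in mid-log growth. Every strain lacked its chromosomal copy of a subunit gene of Swi/Snf, the complex that slides and evicts nucleosomes with energy from ATP. In the groups SWI3, swi3-E815X and swi3del the missing gene was SWI3, a scaffold subunit, and the strain carried a wild-type copy, the E815X copy or no copy. In SNF2, snf2-W935R, snf2-Q928K and snf2del it was SNF2, the ATPase, replaced by a wild-type copy, the W935R copy, the Q928K copy or none. All 7 genotypes also name the marker LEU2, and whether a strain was 1 clone is not given in the sources used here. The series concerns transcriptional interference, and no measurement of sterols is used here.

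Levels are in TPM, a share of all transcripts that is corrected for gene length and from which the read depth cannot be recovered. SWI3 RNA was measured at 37.1 ± 1.38 TPM in SWI3 and at 0.127 ± 0.0601 in swi3del (mean ± SD, n = 3); the level of SNF2 RNA is not analysed here. LEU2 was at 136 ± 1.84 TPM in swi3del and 151 ± 19.9 in snf2del, and between 0.226 and 0.474 in the other 5 groups, although their genotypes name LEU2 as well. LEU2 RNA thus differed together with each deletion, and any part of it in the deletion results cannot be told apart. Correlations between replicates lay between 0.987 and 0.995. Each change is a log2 fold change of TPM + 1, printed ± its standard error, from n = 3 libraries per group. A gene was called when its adjusted p from limma, over all genes tested, was under 0.05, and all 32 genes were tested in each comparison.

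Ergosterol is the main sterol of yeast membranes. Its precursor farnesyl diphosphate is made from acetyl-CoA through mevalonate. Several later steps, from squalene epoxidation on, consume oxygen, and some of them use haem. The paralogous zinc cluster factors Upc2 and Ecm22 activate many of these genes through a sterol response element when sterols run low, and surplus sterol is stored as steryl esters.

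The core of that element, TCGTATA, was searched on both strands upstream of each gene in the R64 genome. In windows from 250 bases before to 50 after the start codon it occurred in 3 of the 32 genes (ERG13, ERG2 and ERG8) and in 4.15% of 6001 windows. With the window extended to 600 bases, a length chosen after seeing the data, it occurred in 8 of 32 genes (25.0%) and in 8.88% of 5999 windows. The 11 sites are shown because these genes form the subset of the pathway with a match to the element that Upc2 and Ecm22 bind. Each line reads 5′ to 3′ on the strand given, with TCGTATA in capitals.
ERG13 site (chrXIII:20733-20759, minus strand): ggaataagctTCGTATAtacaatagaa
ERG13 site (chrXIII:20620-20646, plus strand): ttcaacacacTCGTATAattaatagcc
ERG8 site (chrXIII:712154-712180, minus strand): cttttagatcTCGTATAgaaaaacgca
ERG1 site (chrVII:848789-848815, minus strand): tagcgggcctTCGTATAgctcggccga
ERG25 site (chrVII:610071-610097, plus strand): ctgcctccctTCGTATAcgggacacag
ERG25 site (chrVII:610091-610117, plus strand): gacacagagaTCGTATAcggtaaacga
ERG28 site (chrV:238278-238304, plus strand): ttaattcagtTCGTATAagattaggtt
ERG6 site (chrXIII:253406-253432, minus strand): gccccgatctTCGTATAtggtacctcg
ERG2 site (chrXIII:667342-667368, plus strand): accacggcccTCGTATAagccgcaagg
ERG3 site (chrXII:253525-253551, minus strand): gccatcggccTCGTATAcaccccggtt
ERG3 site (chrXII:253565-253591, plus strand): aaattcaggcTCGTATAagtggcacaa

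The core of the Rox1 site, ATTGTT, was found in 15 of 32 genes (46.9%) and in 35.2% of all 250-base windows, and the Hap1 motif in 0 of 32 genes and 0.133% of windows. Rox1 is a repressor of oxygen-regulated genes and Hap1 a haem-dependent activator. A match is a description of letters only.

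The summed level of the 32 genes was higher in each mutant than in its wild type. It was 10154, 10097 and 9795 TPM in the 3 SWI3 libraries, 11658, 11974 and 11093 in swi3-E815X and 14599, 14969 and 15691 in swi3del. In the other family it was 9156, 9961 and 9267 in SNF2, 11379, 11372 and 11709.6 in snf2-W935R, 14064, 14132 and 14530.3 in snf2-Q928K and 15430.0, 14772 and 15803 in snf2del. No library of a mutant overlapped its wild type, and the set took 1.01% of the summed TPM in SWI3 and 1.54% in swi3del. These sums were not tested.

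Relative to SWI3, 20 of the 32 genes were higher in swi3del and 6 lower, where 47.4% of all 6395 genes tested were higher and 24.3% lower. The median of the 32 was 0.44 and that of all genes 0.23. In snf2del relative to SNF2, 22 were higher and 6 lower, with 50.2% and 24.6% of 6398 genes, and the medians were 0.73 and 0.26. Most genes of the table were called in either deletion, and the shares of 62.5% and 68.8% of sterol genes called higher stand against that background. Median-ratio scaling, which sets the typical gene equal across libraries and moved the median of all genes to 0.02 in swi3del and 0.03 in snf2del, gave 16 higher and 10 lower in swi3del and 19 and 8 in snf2del. Over all genes that scaling turned the split from 3029 and 1554 into 2329 and 2243 in swi3del. In snf2del it turned 3212 and 1574 into 2483 and 2370.

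The 8 genes with a site did not move as 1 block in the deletions. In swi3del 5 of them were higher, 1 was lower (ERG28) and 2 were not called, against 15 higher, 5 lower and 4 not called among the 24 genes without a site. The same counts in snf2del were 6, 1 and 1 with a site, and 16, 5 and 3 without. In the alleles no gene with a site was called lower. The counts were 7, 0 and 1 with a site and 17, 3 and 4 without in snf2-Q928K, where 36.3% of all genes were higher and 20.7% lower. They were 4, 0 and 4 and 10, 2 and 12 in snf2-W935R (16.3% and 10.9% of all genes). In swi3-E815X they were 2, 0 and 6 and 6, 1 and 17 (3.06% and 5.77%).

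**Figure D1:**
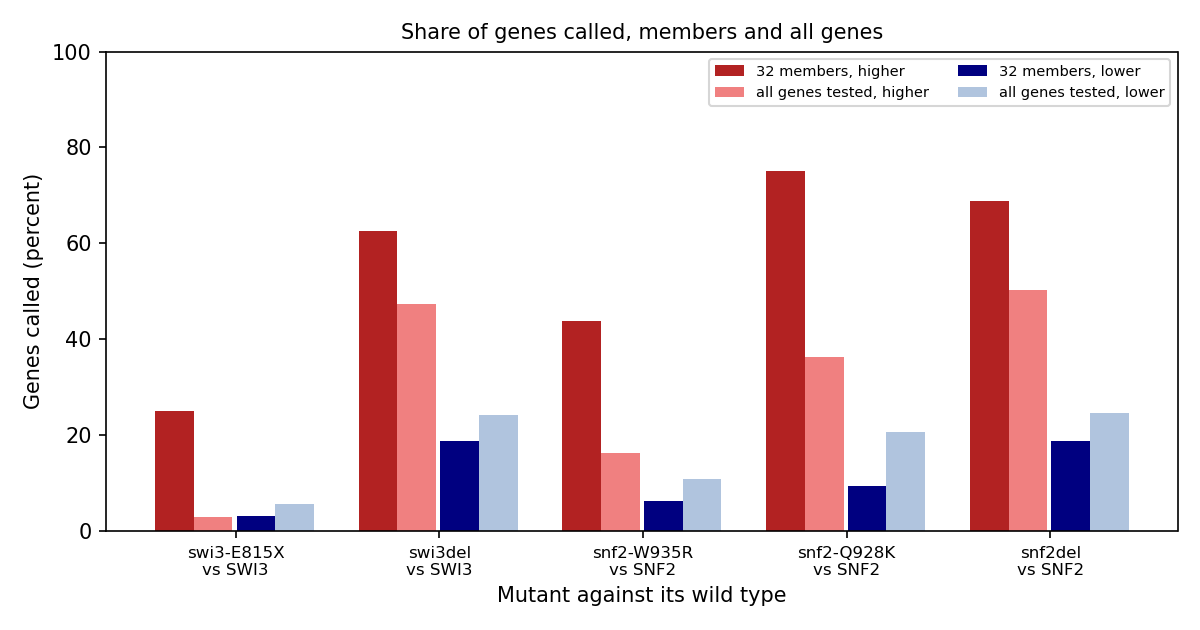
Percent of genes called higher (red) and lower (blue) by limma in each mutant against its wild type, for the 32 sterol genes (dark) and all genes tested (light). The share of sterol genes called higher lies above that of all genes in each mutant, at 25.0% against 3.06% in swi3-E815X and 62.5% against 47.4% in swi3del.

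In the mevalonate pathway 6 of 9 genes rose and 2 fell in either deletion, with medians of 0.80 in swi3del and 0.92 in snf2del beside 0.23 and 0.26 over all genes. Of all genes 47.4% rose and 24.3% fell in swi3del and 50.2% and 24.6% in snf2del, so the share of these 9 that fell was near that of all genes. MVD1, mevalonate pyrophosphate decarboxylase (YNR043W, chrXIV:701895-703085, plus strand), stood at 341, 329 and 311 TPM in SWI3 and 816, 843 and 913 in swi3del, and at 329, 325 and 307 in SNF2 and 922, 829 and 967 in snf2del. All deletion libraries lay above all wild-type libraries. The changes were 1.39 ± 0.07 (limma adjusted p = 4.48e-09) in swi3del and 1.49 ± 0.07 (adjusted p = 5.92e-11) in snf2del. ERG10, the thiolase that condenses acetyl-CoA (YPL028W, chrXVI:498096-499292, plus strand), stood at 272, 321 and 262 TPM in SNF2 and 732, 677 and 812 in snf2del, a change of 1.38 ± 0.08 (limma adjusted p = 1.40e-09). Its group means in SWI3 and swi3del were 323 ± 16.0 and 675 ± 52.3 TPM. ERG13 (HMG-CoA synthase), ERG12 (mevalonate kinase) and ERG8 (phosphomevalonate kinase) were also called higher in both deletions, though ERG8 lost its call in both after median-ratio scaling.

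The isozymes of HMG-CoA reductase, the rate-setting step of the pathway, moved in opposite directions. HMG1 (YML075C, chrXIII:115734-118898, minus strand) stood at 186, 178 and 179 TPM in SWI3 and 107, 108 and 117 in swi3del, and at 166, 183 and 156 in SNF2 and 118, 109 and 122 in snf2del. HMG2 (YLR450W, chrXII:1032627-1035764, plus strand) stood at 51.1, 55.2 and 54.4 and 90.3, 100.3 and 92.1 TPM in the first pair and at 45.6, 50.9 and 48.8 and 94.1, 92.2 and 91.2 in the second. In both families the wild-type and deletion libraries of each gene lay apart. HMG1 fell, with changes of -0.71 ± 0.07 in swi3del and -0.53 ± 0.07 in snf2del (limma adjusted p = 2.83e-06 and 7.24e-06). HMG2 rose by 0.80 ± 0.07 and 0.92 ± 0.07 (adjusted p = 1.18e-06 and 9.71e-09). The isozymes share 81.1% of 1201 aligned bases, and how reads were divided between similar genes is not given in the sources used here.

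Of the other genes of this stage, IDI1, isopentenyl diphosphate isomerase, was called lower in both deletions, at group means of 312 ± 7.70 and 275 ± 15.6 TPM in SWI3 and swi3del and 320.2 ± 13.9 and 248 ± 17.4 in SNF2 and snf2del. The swi3del call of IDI1 (-0.18 ± 0.08, limma adjusted p = 0.0460) was lost without swi3del replicate 2 or 3 and without SWI3 replicate 1, 2 or 3, at values between -0.20 and -0.14. ERG20, farnesyl diphosphate synthase, was not called in either deletion, at 448 ± 14.6 and 457 ± 38.3 TPM in SWI3 and swi3del. After median-ratio scaling ERG20 was called lower in both (-0.20 and -0.30).

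All 3 genes from farnesyl diphosphate to lanosterol rose in both deletions, with medians of 0.96 and 0.91. These stand beside 47.4% of all genes that rose in swi3del and 50.2% in snf2del, with medians of 0.23 and 0.26. ERG1, squalene epoxidase and the first oxygen-using step (YGR175C, chrVII:846933-848423, minus strand), stood at 546, 539 and 515 TPM in SWI3 and 1040.4, 1006 and 1061 in swi3del. The SNF2 family had 522, 523 and 489 in SNF2 and 1024, 864 and 997 in snf2del. The wild-type and deletion libraries did not overlap, and the changes were 0.96 ± 0.07 and 0.91 ± 0.07 (limma adjusted p = 2.00e-07 and 1.72e-08). ERG9, squalene synthase, went from 193 ± 9.27 to 429 ± 31.6 TPM in swi3del and from 195 ± 11.2 to 433 ± 45.5 in snf2del. ERG7, lanosterol synthase, rose less, from 151 ± 8.14 to 188 ± 6.52 and from 141 ± 5.53 to 193 ± 6.33, and its swi3del call was lost after median-ratio scaling (0.09).

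Between lanosterol and ergosterol, 7 of 13 genes rose and 2 fell in swi3del, and 9 rose and 2 fell in snf2del, with medians of 0.37 and 0.56. The share that rose in swi3del was near the 47.4% of all genes, and that in snf2del stands beside 50.2%, with medians of 0.23 and 0.26 over all genes. ERG2, the sterol isomerase (YMR202W, chrXIII:667537-668205, plus strand) and the member with the highest level in both deletions, stood at 1174, 1209.5 and 1170.3 TPM in SWI3 and 2863, 3007 and 3037 in swi3del, and at 1042, 1220.3 and 1214 in SNF2 and 2856, 2823 and 2897 in snf2del. Every deletion library was far above every wild-type library, with changes of 1.32 ± 0.06 and 1.31 ± 0.06 (limma adjusted p = 3.47e-09 and 2.12e-10). ERG29 (YMR134W, chrXIII:537838-538551, plus strand) stood at 55.8, 53.5 and 53.6 TPM in SWI3 and 130.0, 133 and 122 in swi3del, without overlap, and rose by 1.22 ± 0.09 (adjusted p = 1.58e-07). ERG24 (a sterol reductase), ERG25 and ERG26 (demethylation) and ERG4 (the last reductase) were called higher in both deletions too. NCP1, the P450 reductase, was also called in both, but not in swi3del after median-ratio scaling (0.15).

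ERG28, the scaffold that holds the demethylation enzymes together (YER044C, chrV:237570-238016, minus strand), and ERG5, the P450 desaturase (YMR015C, chrXIII:300869-302485, minus strand), fell. ERG28 stood at 298, 327 and 348 TPM in SWI3 and 182, 184 and 207 in swi3del, and at 284, 294 and 291 in SNF2 and 171, 164 and 168 in snf2del. ERG5 stood at 224, 212 and 207 and 113, 131 and 122 TPM in SWI3 and swi3del, and at 196, 203 and 172 and 133, 124 and 151 in SNF2 and snf2del. For both genes the deletion libraries were the lower ones, without overlap. The changes of ERG28 were -0.76 ± 0.09 and -0.79 ± 0.06 (limma adjusted p = 1.05e-05 and 2.34e-08), and those of ERG5 -0.81 ± 0.08 and -0.48 ± 0.08 (adjusted p = 3.46e-06 and 5.34e-05).

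ERG11, the lanosterol demethylase and target of azole drugs (YHR007C, chrVIII:120091-121683, minus strand), had small changes in the deletions. It stood at 910.1, 916 and 901 TPM in SWI3 and 1035, 961 and 1117 in swi3del, and at 895, 883 and 811 in SNF2 and 1143, 902 and 1111 in snf2del. The deletion libraries were slightly above the wild types without overlap, but the change of 0.19 ± 0.09 in swi3del missed the threshold (limma adjusted p = 0.0814, 95% interval -0.01 to 0.39). That of 0.28 ± 0.08 in snf2del passed it (adjusted p = 0.00711) and did not after median-ratio scaling (0.03). ERG3, another desaturase, was called higher in snf2del and not in swi3del. The snf2del call was lost after median-ratio scaling, and also with the SWI3 wild type as control (-0.03). The mean level of ERG3 was 901 ± 97.1 TPM among the SNF2 libraries and 1085 ± 40.1 among those of SWI3. ERG6, the sterol methyltransferase, was not called in either deletion, and was called lower in both after median-ratio scaling (-0.36 and -0.30).

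**Figure D2:**
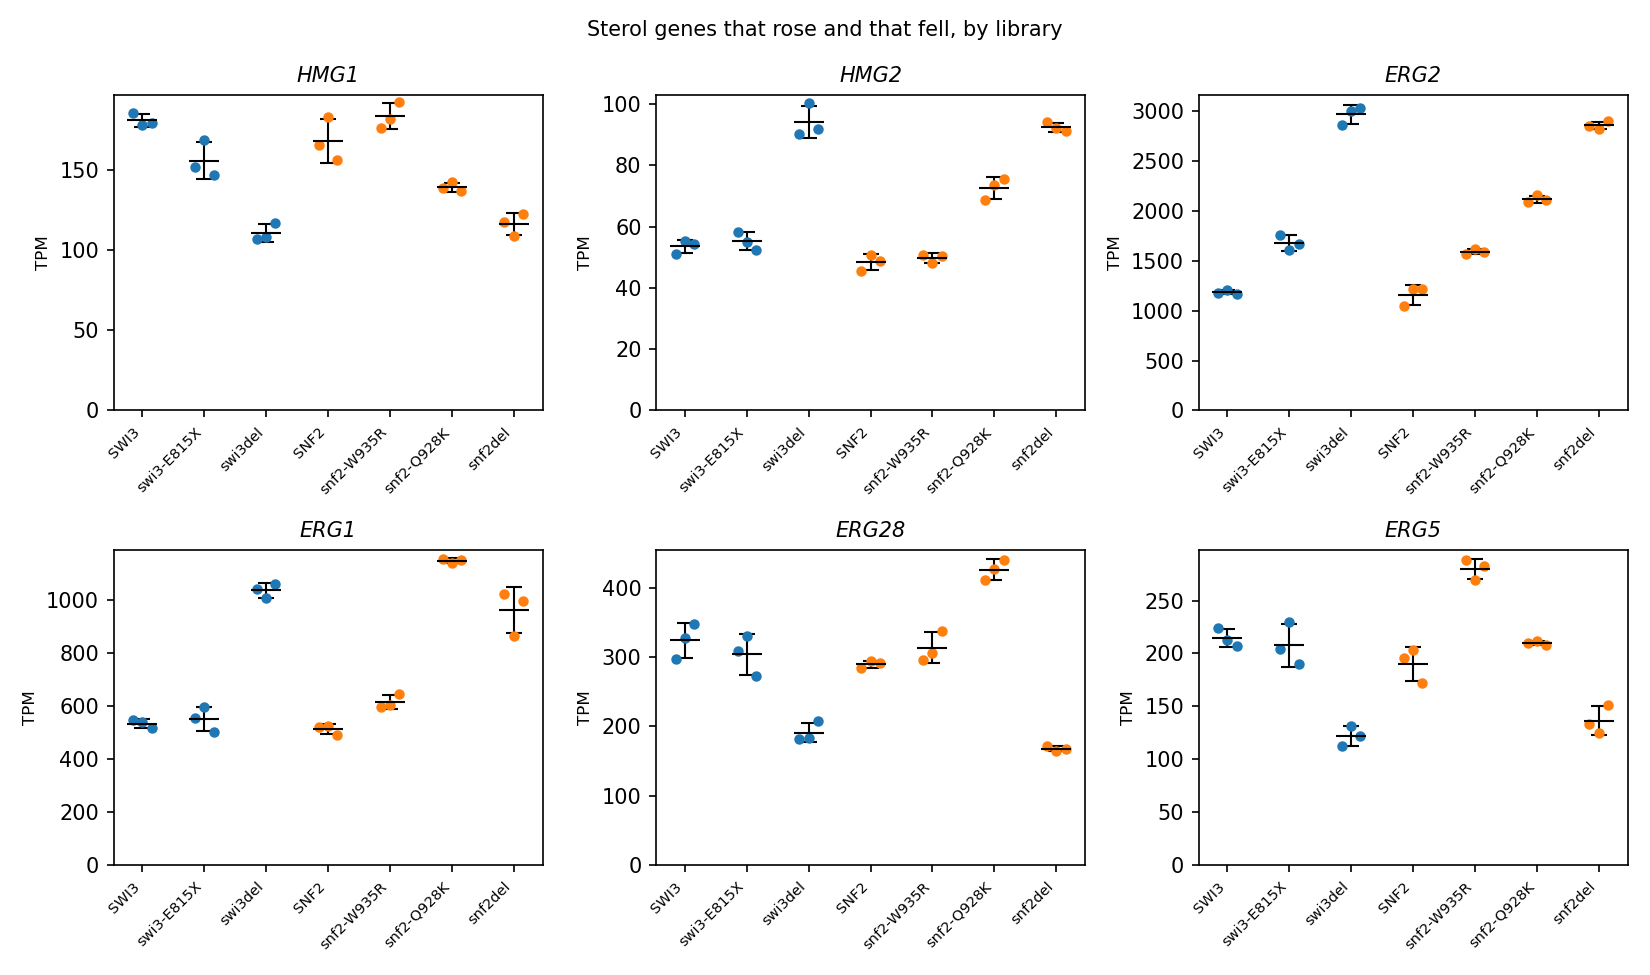
TPM of 6 sterol genes in every library, by group, with the mean and SD of 3 libraries (blue, SWI3 family; orange, SNF2 family). HMG1, ERG28 and ERG5 are lower in both deletions and HMG2, ERG2 and ERG1 higher, while ERG28 in snf2-Q928K (426 ± 15.1 TPM) lies above its wild type.

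The sterol acetylation gene fell where those of esterification and deacetylation rose. ATF2, the acetyltransferase that acetylates sterols and alcohols (YGR177C, chrVII:848829-850436, minus strand), stood at 72.5, 69.1 and 71.0 TPM in SWI3 and 11.9, 9.41 and 10.5 in swi3del, and at 71.7, 72.8 and 73.4 in SNF2 and 12.9, 12.2 and 11.4 in snf2del. No wild-type library came near a deletion library, and the changes of -2.64 ± 0.11 and -2.49 ± 0.08 (limma adjusted p = 1.16e-09 and 3.59e-12) were the largest of the 32 genes in size. ATF2 lies just upstream of ERG1 on the same strand of chromosome VII, with 405 bases between their coding sequences, and the ERG1 site printed above lies in that gap. A stretch of 150 bases upstream of ATF2 is shown because this gene changed most. Capitals mark its match to ATTGTT.
ATF2 upstream (chrVII:850537-850686, minus strand): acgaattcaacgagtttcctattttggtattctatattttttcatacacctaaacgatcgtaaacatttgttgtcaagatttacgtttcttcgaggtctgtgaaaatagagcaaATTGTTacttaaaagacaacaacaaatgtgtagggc

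The acyltransferases Are1 and Are2 store sterols as esters. ARE2 (YNR019W, chrXIV:665339-667267, plus strand) stood at 116, 110.3 and 106 TPM in SWI3 and 267, 285 and 274 in swi3del, and at 114, 107 and 112 in SNF2 and 284, 291 and 286 in snf2del. Every deletion library was higher, by 1.30 ± 0.07 and 1.36 ± 0.05 (limma adjusted p = 1.32e-08 and 2.18e-11). ARE1 (YCR048W, chrIII:211929-213761, plus strand) stood at 61.1, 67.9 and 56.9 and 83.4, 71.2 and 84.8 TPM in SWI3 and swi3del, and at 46.7, 56.6 and 46.8 and 85.0, 88.9 and 95.1 in SNF2 and snf2del. It was higher without overlap, by 0.36 ± 0.10 (adjusted p = 0.00773) and 0.83 ± 0.08 (adjusted p = 4.03e-07), and the swi3del call was lost after median-ratio scaling (0.14). ARE1 overlaps an annotated antisense gene, YCR050C, by 298 bases, and whether counting used strand is not given in the sources used here. SAY1, the sterol deacetylase, was called higher in both deletions, at 23.8 ± 1.61 and 40.9 ± 1.29 TPM in SWI3 and swi3del. HES1, of the oxysterol-binding family, stayed near the filter at 2.92, 2.11 and 2.31 TPM in SWI3, 2.01, 2.93 and 2.95 in swi3del, 3.26, 2.22 and 2.44 in SNF2 and 3.24, 2.91 and 3.71 in snf2del. Its groups overlapped and its changes were not called (0.07 ± 0.25 and 0.24 ± 0.24, limma adjusted p = 0.817 and 0.371).

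The activator genes UPC2 and ECM22 changed in opposite directions. ECM22 (YLR228C, chrXII:600019-602463, minus strand) stood at 34.5, 30.8 and 30.3 TPM in SWI3 and 50.8, 51.0 and 50.5 in swi3del, and at 24.8, 29.9 and 26.8 in SNF2 and 53.0, 57.4 and 50.2 in snf2del. It rose without overlap by 0.66 ± 0.07 and 0.96 ± 0.08 (limma adjusted p = 6.09e-06 and 5.15e-08). UPC2 (YDR213W, chrIV:889751-892492, plus strand) stood at 14.6, 11.3 and 13.0 TPM in SWI3 and 7.09, 6.16 and 5.44 in swi3del, and at 21.5, 25.5 and 22.7 in SNF2 and 6.43, 7.25 and 5.54 in snf2del. It fell without overlap, with changes of -0.95 ± 0.13 and -1.71 ± 0.13 (adjusted p = 4.27e-05 and 1.23e-08). On the TPM scale ECM22 exceeded UPC2 in each wild type and the difference was wider in the deletions. The paralogs share 66.7% of 978 aligned bases.

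The SNF2 wild type was itself unusual at UPC2. The gene lies in a stretch of 48 genes on chromosome IV, from GCD6 to EXG2 (chrIV:884727-979209), whose median log2 level was 0.92 higher in SNF2 than in SWI3. Of its genes 44 were called, where 1.41% of 6405 genes were higher and 2.56% lower. The ends of the stretch were not part of the planned design, so its median and calls are a description and not a test. UPC2 differed between these wild types by 0.80 ± 0.12 (limma adjusted p = 1.81e-04). The medians of the stretch in the other groups, also relative to SWI3, lay between -0.04 and 0.17. Set against SWI3 instead of SNF2, UPC2 was still lower in snf2del (-0.91, adjusted p = 1.03e-06) and in snf2-Q928K (-0.65, adjusted p = 1.42e-04). In snf2-W935R it was not called against that control (-0.25, adjusted p = 0.124). The part of the stretch in the UPC2 result of the SNF2 family was not otherwise tested. The same upstream interval as for ATF2 is shown for both activators, because they moved oppositely; neither interval holds the letters of any of the 3 motifs.
UPC2 upstream (chrIV:889501-889650, plus strand): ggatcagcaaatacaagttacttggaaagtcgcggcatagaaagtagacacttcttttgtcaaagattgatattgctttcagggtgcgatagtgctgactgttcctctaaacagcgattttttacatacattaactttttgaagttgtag
ECM22 upstream (chrXII:602564-602713, minus strand): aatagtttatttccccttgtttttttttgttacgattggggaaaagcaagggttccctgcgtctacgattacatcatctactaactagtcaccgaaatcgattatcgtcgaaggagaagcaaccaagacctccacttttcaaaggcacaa

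**Figure D3:**
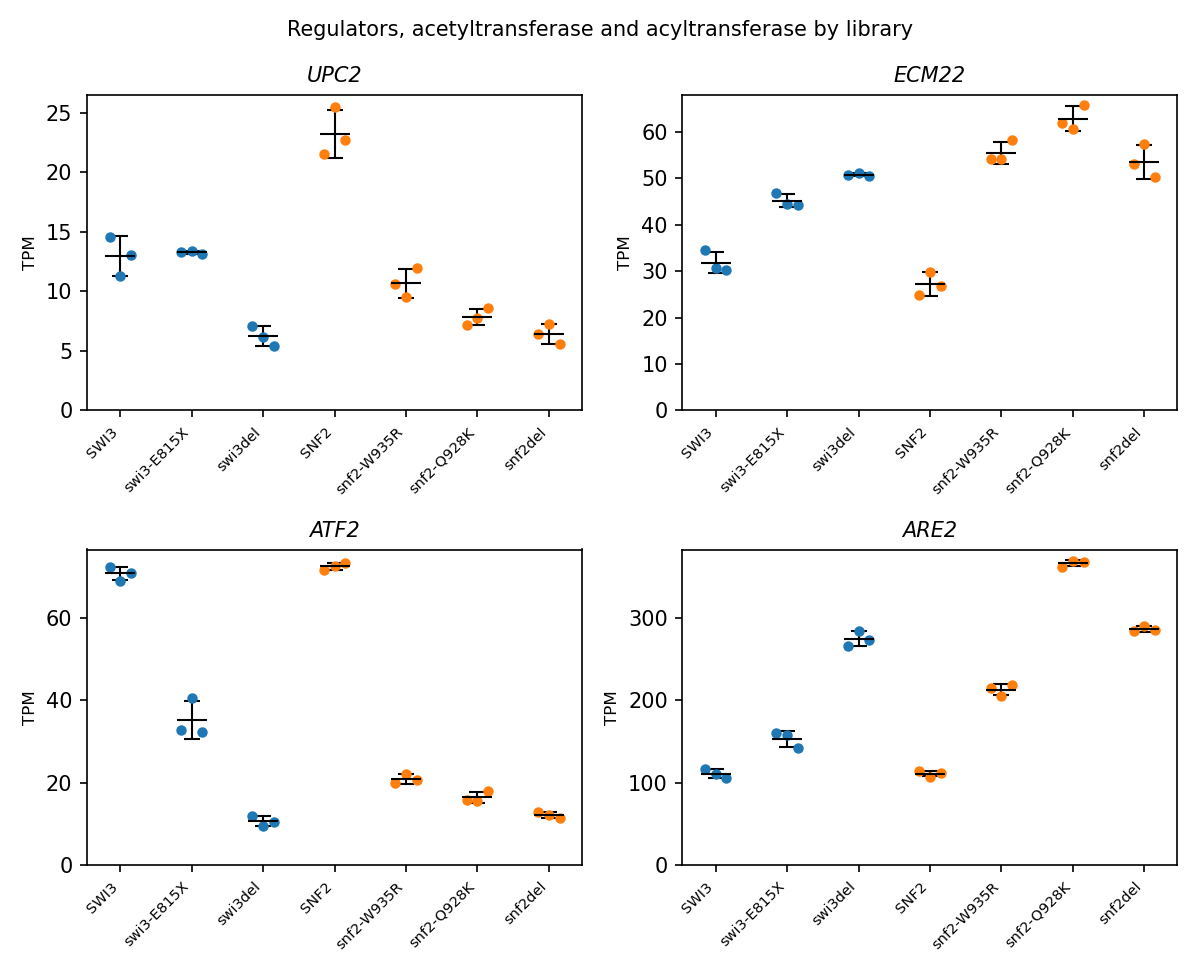
TPM of UPC2, ECM22, ATF2 and ARE2 in every library, by group, with the mean and SD of 3 libraries (blue, SWI3 family; orange, SNF2 family). UPC2 is highest in the SNF2 wild type (23.2 ± 2.03 TPM), and ATF2 is lower and ECM22 and ARE2 higher than the wild type in all 5 mutants.

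Between the wild types, 1 of the 32 genes was higher in SNF2 and 2 were lower, with 1.41% and 2.56% of 6405 genes. Besides UPC2, ERG4 stood at 263, 273 and 242 TPM in SWI3 and 208, 218 and 196 in SNF2 (-0.32 ± 0.06, limma adjusted p = 0.00299). ERG3 stood at 1123, 1089 and 1043 TPM in SWI3 and 823, 1010.1 and 871 in SNF2 (-0.27 ± 0.07, adjusted p = 0.0255). Neither overlapped, but the ERG3 call was lost without SNF2 replicate 1 (-0.21) or 3 (-0.25) and without SWI3 replicate 1 (-0.25) or 2 (-0.27). ECM22 (-0.22 ± 0.07), ARE2 (0.00066 ± 0.06), ARE1 (-0.31 ± 0.10), HMG1 (-0.11 ± 0.07), HMG2 (-0.14 ± 0.06), ERG1 (-0.06 ± 0.07), ERG11 (-0.08 ± 0.09) and HES1 (0.08 ± 0.24) were not called.

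The change in snf2del and that in swi3del were compared directly as a difference of differences. Of the 32 genes 2 had a more positive change in snf2del (ERG3 and ERG4) and 1 a more negative one (UPC2), where 1.42% and 0.859% of 6405 genes did; median-ratio scaling left 0 and 1. The difference was -0.76 ± 0.17 for UPC2 (limma adjusted p = 0.0156), 0.40 ± 0.10 for ERG3 (adjusted p = 0.0272) and 0.34 ± 0.09 for ERG4 (adjusted p = 0.0421). This comparison holds the same SNF2 and SWI3 libraries as that between the wild types, where the same 3 genes were called. All 3 calls were lost when snf2del replicate 3, swi3del replicate 1 or SWI3 replicate 2 was left out, with UPC2 at -0.68, -0.68 and -0.67, and those of ERG3 and ERG4 also without SNF2 replicate 1 or 3 or SWI3 replicate 1. ERG3 was also not called without swi3del replicate 3, nor ERG4 without snf2del replicate 2 or swi3del replicate 2. The difference for ATF2 had a 95% interval of -0.12 to 0.42, that for ARE2 of -0.10 to 0.23, that for ERG1 of -0.25 to 0.15 and that for ECM22 of 0.08 to 0.51. For HMG1 it was -0.02 to 0.38, for HMG2 -0.07 to 0.31, for ERG11 -0.17 to 0.35, for ARE1 0.19 to 0.76 and for HES1 -0.53 to 0.88, and none of these genes was called.

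Fewer sterol genes were called in swi3-E815X than in swi3del, and they included late enzymes, ARE2, ECM22 and ATF2. Relative to SWI3, 8 of 32 were higher and 1 lower, where 3.06% of 6395 genes were higher and 5.77% lower, with medians of 0.06 over the 32 and -0.03 over all genes. The 8 were ERG2, ECM22, ARE2, ERG11, ERG3, ERG29, ERG4 and MVD1, and 5 of them act between lanosterol and ergosterol. ERG2 stood at 1762, 1609.7 and 1665 TPM, all above the SWI3 libraries (0.50 ± 0.06, limma adjusted p = 1.47e-04). ERG11 stood at 1168, 1399 and 1093 TPM (0.42 ± 0.09, adjusted p = 0.0118), ECM22 at 46.8, 44.5 and 44.2 (0.49 ± 0.07, adjusted p = 7.69e-04) and ARE2 at 160.4, 158 and 142 (0.46 ± 0.07, adjusted p = 9.18e-04). All 3 were above the SWI3 libraries without overlap. The calls of MVD1 and ERG29 depended on single libraries. MVD1 (0.22 to 0.27) lost its call without swi3-E815X replicate 1, 2 or 3 and without SWI3 replicate 2 or 3. ERG29 lost its call without swi3-E815X replicate 1 (0.27) and without SWI3 replicate 2 (0.36) or 3 (0.36).

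ATF2 was the single member that fell in swi3-E815X. Its libraries stood at 32.8, 40.6 and 32.4 TPM, below all SWI3 libraries and above all swi3del libraries, a change of -0.996 ± 0.11 (limma adjusted p = 4.88e-05). UPC2 stood at 13.3, 13.4 and 13.1 TPM, within the range of SWI3 (0.04 ± 0.13, adjusted p = 0.898, 95% interval -0.25 to 0.33). HMG1 at 152, 169 and 147 TPM (-0.22 ± 0.07, adjusted p = 0.0898), HMG2 at 58.3, 55.0 and 52.5 (0.04 ± 0.07), ERG1 at 556, 595 and 503 (0.04 ± 0.07), ARE1 at 63.7, 67.6 and 54.4 (-0.0031 ± 0.10) and HES1 at 3.87, 1.86 and 2.42 (0.08 ± 0.25) were not called.

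**Figure D4:**
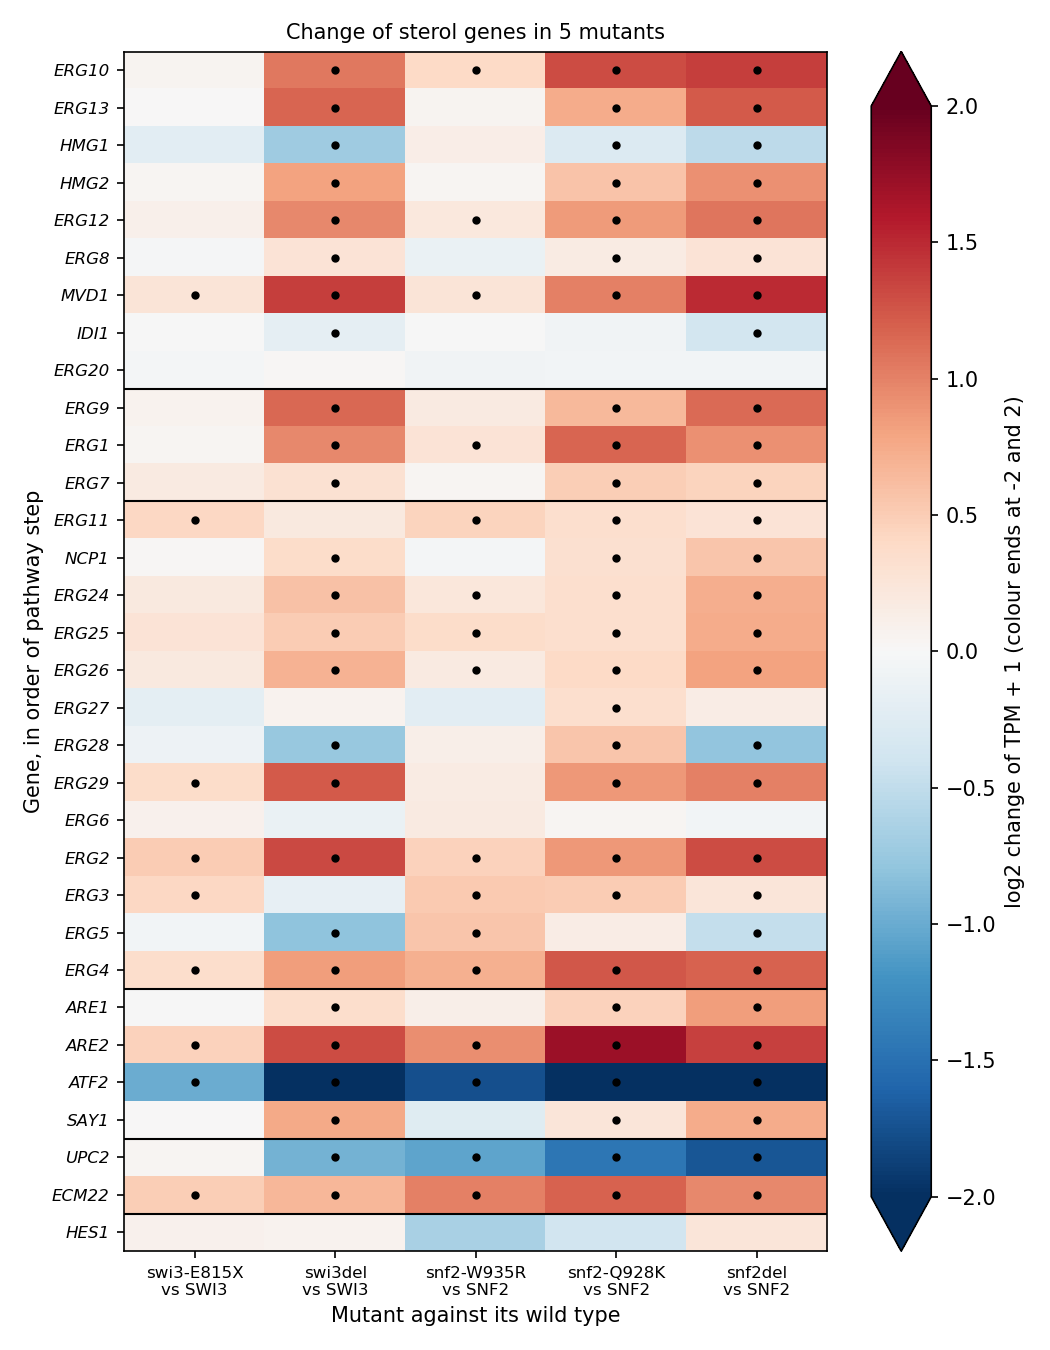
Log2 change of TPM + 1 for each of the 32 genes (rows, in pathway order, lines between roles) in each mutant against its wild type (columns), with a dot where limma called the change. Colours end at -2 and 2, which cuts the ATF2 changes of -2.64 ± 0.11 in swi3del, -2.49 ± 0.08 in snf2del and -2.08 ± 0.08 in snf2-Q928K. Most mevalonate genes are red in swi3del, snf2-Q928K and snf2del, with HMG1 blue, and are paler in swi3-E815X and snf2-W935R, and ATF2 is blue throughout.

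In snf2-W935R, 14 of 32 genes were higher than in SNF2 and 2 lower, where 16.3% of 6398 genes were higher and 10.9% lower. The medians were 0.17 over the 32 and 0.03 over all genes. Median-ratio scaling gave 14 higher and 6 lower, with SAY1, ERG27, ERG8 and HES1 added to those lower. Over all genes that scaling gave 994 higher and 906 lower. Among the 14 were 8 of the 13 genes between lanosterol and ergosterol and 3 of 9 in the mevalonate pathway. ERG4 stood at 335, 332 and 351 TPM (0.71 ± 0.07, limma adjusted p = 1.48e-06) and ARE2 at 214, 206 and 219 (0.94 ± 0.05, adjusted p = 9.27e-09). ECM22 stood at 54.1, 54.2 and 58.3 TPM (1.01 ± 0.08, adjusted p = 2.85e-07). These libraries all exceeded those of SNF2.

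ERG5, lower in both deletions, was higher in snf2-W935R, at 288, 269 and 282 TPM (0.56 ± 0.08, limma adjusted p = 7.99e-05), without overlap with SNF2. ERG11 stood at 1136, 1139 and 1237 TPM (0.44 ± 0.08, adjusted p = 0.00116) and ERG1 at 597, 604 and 646 (0.27 ± 0.07, adjusted p = 0.00997), both above SNF2. The 2 lower genes were ATF2, at 19.9, 22.1 and 20.7 TPM (-1.75 ± 0.08, adjusted p = 1.21e-09), and UPC2, at 10.6, 9.54 and 11.9 (-1.05 ± 0.13, adjusted p = 1.65e-05), the latter subject to the control described above. HMG1 stood at 176, 182 and 192 TPM (0.13 ± 0.07), HMG2 at 50.9, 48.0 and 50.4 (0.04 ± 0.07), ARE1 at 51.7, 58.8 and 51.4 (0.11 ± 0.08) and HES1 at 1.88, 0.863 and 1.29 (-0.65 ± 0.24), none of them called. The calls of ERG26 and ERG12 were weak. ERG26 lost its call without any 1 of the 6 libraries of the comparison, at values between 0.14 and 0.21, and ERG12 without snf2-W935R replicate 1 (0.20) or SNF2 replicate 3 (0.17). With the SWI3 wild type as control ERG12, ERG24 and ERG26 were not called.

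In snf2-Q928K, 24 of 32 genes were higher than in SNF2 and 3 lower, where 36.3% of 6398 genes were higher and 20.7% lower, with medians of 0.43 and 0.10. All 3 genes from farnesyl diphosphate to lanosterol and 11 of 13 from there to ergosterol were higher. ARE2 stood at 363, 369 and 368 TPM, its highest level in any group (1.72 ± 0.05, limma adjusted p = 6.93e-12). ERG10 stood at 713, 719.9 and 674 TPM (1.30 ± 0.08, adjusted p = 8.81e-09), ERG4 at 532, 471 and 481 (1.25 ± 0.07, adjusted p = 1.81e-09) and ECM22 at 62.0, 60.7 and 65.9 (1.18 ± 0.08, adjusted p = 1.81e-08). None of these overlapped SNF2. ERG28 was higher too, at 411, 428 and 441 TPM (0.55 ± 0.06, limma adjusted p = 2.76e-06), and so was ERG27, a sterol keto reductase, at 399, 418 and 504 against 314, 367 and 358 in SNF2 (0.34 ± 0.08, adjusted p = 0.00305). Neither was called higher in another mutant. ERG1 stood at 1154, 1138 and 1152 TPM (1.17 ± 0.07, adjusted p = 4.77e-09), ERG11 at 1109.9, 1115 and 1057 (0.34 ± 0.08, adjusted p = 0.00276), HMG2 at 68.6, 73.7 and 75.7 (0.57 ± 0.07, adjusted p = 4.01e-06) and ARE1 at 68.1, 71.0 and 68.2 (0.46 ± 0.08, adjusted p = 3.01e-04). All 4 lay above SNF2, but ARE1 was not called with the SWI3 wild type as control (0.16, adjusted p = 0.167).

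The 3 that fell were ATF2, at 15.8, 15.5 and 17.9 TPM (-2.08 ± 0.08, limma adjusted p = 7.04e-11), UPC2, at 7.19, 7.79 and 8.59 (-1.45 ± 0.13, adjusted p = 2.24e-07), and HMG1, at 139, 142 and 137 (-0.27 ± 0.07, adjusted p = 0.00459). Their libraries lay below all SNF2 libraries. HES1 stood at 1.10, 1.81 and 2.55 TPM (-0.39 ± 0.24) and ERG5 at 209.9, 212 and 208 (0.15 ± 0.08), neither called. The calls of ERG8 and SAY1 were weak: ERG8 lost its call without snf2-Q928K replicate 1 (0.18) or 3 (0.10) or SNF2 replicate 1 (0.15) or 2 (0.16). SAY1 lost its call without snf2-Q928K replicate 1 (0.22) or 3 (0.24) or SNF2 replicate 1 (0.23). The comparisons of snf2-W935R, snf2-Q928K and snf2del share the SNF2 libraries.

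Set directly against snf2-W935R, snf2-Q928K had 19 of 32 genes higher and 4 lower, where 30.0% of 6398 genes were higher and 14.1% lower. The medians were 0.36 over the 32 and 0.08 over all genes. ERG10 differed by 0.91 ± 0.08 (limma adjusted p = 1.81e-06), ERG1 by 0.90 ± 0.07 (adjusted p = 3.89e-07) and ARE2 by 0.78 ± 0.05 (adjusted p = 1.49e-07). MVD1 (0.74 ± 0.07), ERG29 (0.69 ± 0.11) and ERG13 (0.68 ± 0.08) were also among the largest differences, and HMG2 (0.54 ± 0.07) and ARE1 (0.35 ± 0.08) were higher too. The 4 lower genes were HMG1 (-0.39 ± 0.07), ERG5 (-0.41 ± 0.08), ATF2 (-0.33 ± 0.08) and UPC2 (-0.40 ± 0.13, adjusted p = 0.0193). The UPC2 call was lost without snf2-Q928K replicate 1 (-0.34) or snf2-W935R replicate 3 (-0.32). ERG11 (-0.10 ± 0.08, 95% interval -0.28 to 0.08), ECM22 (0.18 ± 0.08, 95% interval 0.0044 to 0.35) and HES1 (0.26 ± 0.24, 95% interval -0.25 to 0.77) were not called.

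The Q928K copy was also set against snf2del, a comparison added after seeing the data. Of the 32 genes 9 were higher in snf2-Q928K and 13 lower, where 22.3% and 40.5% of 6398 genes were, with medians of -0.04 and -0.14. Median-ratio scaling moved the median of all genes to -0.01 and gave 14 higher and 10 lower, where 2057 and 1963 of 6398 genes were. Of the 9 mevalonate genes 4 were lower in snf2-Q928K and 2 higher, near the shares of all genes. Their median was -0.11, beside -0.14 over all genes. MVD1 was lower at -0.49 ± 0.07 and the squalene synthase gene ERG9 at -0.48 ± 0.07 (limma adjusted p = 1.97e-05 and 6.71e-05). SAY1 (-0.49 ± 0.09), HMG2 (-0.35 ± 0.07) and ARE1 (-0.37 ± 0.08) were lower too. ERG28, above SNF2 in snf2-Q928K and below it in snf2del in every library, differed by 1.34 ± 0.06 (adjusted p = 1.36e-09). ERG5, not called against SNF2 in snf2-Q928K and lower in snf2del, differed by 0.62 ± 0.08 (adjusted p = 1.04e-05).

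ERG1 (0.26 ± 0.07, limma adjusted p = 0.00450), ARE2 (0.35 ± 0.05, adjusted p = 5.59e-05) and HMG1 (0.26 ± 0.07, adjusted p = 0.00525) were higher in snf2-Q928K than in the deletion. ECM22 (0.23 ± 0.08) was called higher, and not without snf2-Q928K replicate 3 (0.19) or snf2del replicate 1 (0.22) or 3 (0.18). HES1 (-0.63 ± 0.24) was called lower, and not after median-ratio scaling (-0.53) or without snf2-Q928K replicate 1 (-0.43) or 2 (-0.64) or snf2del replicate 1 (-0.64) or 3 (-0.56). UPC2 (0.26 ± 0.13, 95% interval -0.0081 to 0.53) and ERG11 (0.06 ± 0.08, 95% interval -0.11 to 0.24) were not called, though UPC2 was called higher after median-ratio scaling (0.38).

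Further genes that touch sterol metabolism were described by 5 lists. Their counts stand beside shares over all genes of 47.4% higher and 24.3% lower in swi3del, 50.2% and 24.6% in snf2del, 3.06% and 5.77% in swi3-E815X, 16.3% and 10.9% in snf2-W935R and 36.3% and 20.7% in snf2-Q928K. Of 23 genes of sterol uptake, transport and steryl ester breakdown, 12 rose and 5 fell in swi3del and 13 rose and 4 fell in snf2del, with list medians of 0.31 and 0.49 beside 0.23 and 0.26 over all genes. The shares that rose in the deletions were near those of all genes. NPC2, a vacuolar sterol-binding protein, went from 544 ± 18.1 to 1661 ± 196 TPM in swi3del (1.60 ± 0.10, limma adjusted p = 6.36e-08) and from 600.1 ± 46.7 to 1605 ± 45.3 in snf2del (1.42 ± 0.08, adjusted p = 4.90e-10). NCR1, the yeast relative of a Niemann-Pick disease protein, changed by 1.33 ± 0.07 and 1.37 ± 0.06, and PRY1, which binds and exports sterol acetates, by 1.34 ± 0.07 and 1.48 ± 0.09. In swi3-E815X 3 rose and 1 fell, in snf2-W935R 8 rose and 0 fell, and in snf2-Q928K 12 rose and 2 fell.

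Of 11 genes that control HMG-CoA reductase or serve the P450 enzymes, 4 rose and 2 fell in swi3del and 7 rose and 1 fell in snf2del, with medians of 0.16 and 0.28. In swi3del the share that rose was below the 47.4% of all genes, and the median below that of all genes (0.23). NSG2, which stabilises the reductase, rose by 1.02 ± 0.08 and 1.08 ± 0.09, and DAP1, a haem-binding partner of Erg11, by 0.94 ± 0.11 and 1.04 ± 0.10 (limma adjusted p = 7.96e-06 and 1.51e-07). In the alleles the counts were 0 and 1 in swi3-E815X, 1 and 2 in snf2-W935R and 7 and 2 in snf2-Q928K. The 14 genes of isoprenoid side branches split into 4 that rose and 4 that fell in swi3del and 7 and 4 in snf2del, at medians of 0.04 and 0.15, with COQ2 of ubiquinone synthesis at 1.64 ± 0.09 and 1.90 ± 0.07 and the prenyltransferase subunit gene CDC43 at -0.86 ± 0.08 and -0.80 ± 0.08. Both medians were below those of all genes (0.23 and 0.26), and the share that rose in swi3del was below 47.4%. Their counts were 0 and 1 in swi3-E815X, 1 and 5 in snf2-W935R and 5 and 5 in snf2-Q928K.

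Of 14 measured genes known to respond to oxygen or haem, 10 rose and 4 fell in swi3del and 9 rose and 4 fell in snf2del, with medians of 1.02 and 0.78. The list was not divided by the direction of that response, so the counts carry no direction in terms of oxygen. Over all genes the shares were 47.4% higher and 24.3% lower in swi3del and 50.2% and 24.6% in snf2del, with medians of 0.23 and 0.26. OLE1, the fatty acid desaturase, went from 794 ± 47.4 to 4137 ± 339 TPM in swi3del and from 609 ± 39.5 to 4186 ± 79.1 in snf2del, changes of 2.38 ± 0.08 and 2.78 ± 0.08 (limma adjusted p = 2.03e-10 and 1.82e-12). AAC3, an ADP/ATP carrier of anaerobic growth, fell from 21.3 ± 3.55 to 2.16 ± 0.688 TPM in swi3del. The list split into 1 and 4 in swi3-E815X, 3 and 5 in snf2-W935R and 5 and 5 in snf2-Q928K, with TIR1, a cell wall mannoprotein, at -1.99 ± 0.20 in the first. Of 11 regulators of such genes 5 rose and 2 fell in swi3del and 7 and 2 in snf2del, with medians of 0.23 and 0.34. In swi3del both the share that rose and the median were near those of all genes (47.4% and 0.23). The repressor ROX1 rose by 1.27 ± 0.15 and 1.12 ± 0.08, and SUT2, a zinc cluster factor related to the sterol uptake regulator SUT1, fell, with changes of -1.16 ± 0.10 and -1.02 ± 0.08 (adjusted p = 5.73e-07 and 3.56e-08). The counts of these regulators were 0 and 1 in swi3-E815X, 4 and 2 in snf2-W935R and 8 and 1 in snf2-Q928K.

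The authors' deposited tables hold fewer sterol genes called higher than limma in each mutant. In both deletions they hold more called lower, 7 in swi3del and 8 in snf2del against 6 and 6 by limma. At an adjusted p under 0.05 in the authors' deposited tables, 11 of 31 listed members were higher and 7 lower in swi3del, 3 and 1 in swi3-E815X, 8 and 1 in snf2-W935R and 12 and 2 in snf2-Q928K. The authors' deposited table of snf2del lists only genes under that threshold and holds 21 members, 13 higher and 8 lower. Shares over all genes in the authors' deposited tables are not given here, so these counts stand without a background. Members called both there and by limma numbered 16, 4, 9, 14 and 19 in that order, all in the same direction, and 0 went opposite ways. ERG3 and ERG6 in swi3del and ERG6 and ERG20 in snf2del were lower in the authors' deposited tables and not called by limma on the TPM as deposited. The authors' deposited table gives ATF2 at -3.01 in swi3del (adjusted p = 2.72e-14) and -2.85 in snf2del (adjusted p = 8.17e-14). The activators were not called in swi3del in the authors' deposited table, with UPC2 at -1.35 (adjusted p = 0.0985) and ECM22 at 0.43 (adjusted p = 0.319). For snf2del the authors' deposited table gives UPC2 at -2.20 (adjusted p = 5.02e-04) and does not list ECM22. In swi3-E815X the authors' deposited table calls ERG2, ERG3, ERG11 and ATF2. It does not call ECM22, ARE2 (adjusted p = 0.224), ERG4 (adjusted p = 0.134) or MVD1 (adjusted p = 0.438). Nor do the authors' deposited tables call HMG2 in swi3del (adjusted p = 0.0519) or snf2-Q928K (adjusted p = 0.220), or HMG1 in snf2-Q928K (adjusted p = 0.136).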

How the data were processed

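Poly(A)-selected RNA of 21 yeast libraries was made with a directional kit, per the labels' protocols. The submitters' processing notes name DESeq2, StringTie and HISAT2, and as builds R64 and sacCer3, with no versions or roles. The authors deposited TPM for 6407 genes, per the file headers, with 0 unused sample columns; TPM keeps no depth, so no counting interval is given. The authors also deposited, per the file headers, comparison tables with log2 fold changes, their standard errors and adjusted p-values. The mean signal in those deposited tables and their test score were not used.

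Changes were fitted with limma 3.58.1 (R 4.3.3, statmod 1.5.0), two-sided, on log2(TPM + 1) keeping genes that reached 1 TPM in 3 or more libraries, with trended, robust moderation and Benjamini-Hochberg adjustment over all genes tested. The pseudocount understates changes of low genes. The SWI3 family (9 libraries) and SNF2 family (12) were fitted separately; comparisons between the families used all 21. The fit was tested on simulated data. Members and lists were chosen with earlier results of these data known. Statistics were given for up to 4 called members with the largest rise and fall per mutant, up to 6 in other comparisons, 9 genes in every comparison and up to 3 called genes per further list. Other members were named after their values were seen. Motifs and sequences come from the RefSeq R64 genome (one start codon per gene), and similar copies were found with BLAST 2.17.0. Alternatives were pseudocounts of 0.1 and 5, no filter, median-ratio scaling, plain moderation, all 21 libraries in the fit, a replicate block, the SWI3 wild type as control, and each library left out.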

Additional observations from a re-analysis of the deposited data

Results flagged for a closer look

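The genes UPC2, ERG3 and ERG4 stand out because their change differed between the deletions. The test was of the difference itself, the change in snf2del minus that in swi3del. The same genes were also called between the wild types. UPC2 had a difference of -0.76 ± 0.17 (limma adjusted p = 0.0156), from changes of -1.71 ± 0.13 in snf2del and -0.95 ± 0.13 in swi3del. The call was lost without snf2del replicate 3 (-0.68), swi3del replicate 1 (-0.68) or SWI3 replicate 2 (-0.67). UPC2 levels were close in the deletions, at 6.41 ± 0.856 TPM in snf2del and 6.23 ± 0.827 in swi3del. Those in the wild types SNF2 and SWI3 were 23.2 ± 2.03 and 13.0 ± 1.66. UPC2 lies in the chromosome IV stretch described above, whose median was 0.92 higher in SNF2 than in SWI3. Set against SWI3 instead, the change of UPC2 in snf2del was -0.91.

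ERG3 had a difference of 0.40 ± 0.10 (limma adjusted p = 0.0272), with a mean of 1062 ± 33.0 TPM in snf2del and 971 ± 20.8 in swi3del. Its wild-type means were 901 ± 97.1 TPM in SNF2 and 1085 ± 40.1 in SWI3. Its call was lost without snf2del replicate 3 (0.38), SNF2 replicate 1 (0.34) or 3 (0.38), swi3del replicate 1 (0.39) or 3 (0.39), or SWI3 replicate 1 (0.38) or 2 (0.40). ERG4 had a difference of 0.34 ± 0.09 (limma adjusted p = 0.0421), with 469.7 ± 20.0 TPM in snf2del and 461 ± 15.4 in swi3del. Its call was lost without snf2del replicate 2 (0.31) or 3 (0.35), SNF2 replicate 1 (0.34) or 3 (0.30), swi3del replicate 1 (0.33) or 2 (0.33), or SWI3 replicate 1 (0.33) or 2 (0.31).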

How the results depend on the processing

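Under median-ratio scaling 10 of the 32 genes were lower in swi3del, 6 in snf2-W935R and 5 in snf2-Q928K, 14 were higher in snf2-Q928K than in snf2del, and 0 had a more positive change in snf2del than in swi3del. The last count was 1 with plain moderation and 1 with a replicate block. Plain moderation gave 4 lower in snf2-W935R, as did the fit of all 21 libraries (4), which gave 2 lower in swi3-E815X. The cause was not tested. Over all genes tested, median-ratio scaling gave 2243 lower in swi3del, 906 in snf2-W935R and 1906 in snf2-Q928K. It gave 2057 higher in snf2-Q928K than in snf2del, and 83 with a more positive change in snf2del than in swi3del. That last count over all genes was 88 with plain moderation and 89 with a replicate block. Plain moderation gave 659 of all genes lower in snf2-W935R. The fit of all 21 libraries gave 725 lower there and 484 lower in swi3-E815X.

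With 1 library left out, the higher and lower counts ranged from 20 to 21 and 5 to 6 in swi3del, 6 to 8 and 1 to 2 in swi3-E815X, 22 to 22 and 6 to 6 in snf2del, 12 to 13 and 2 to 3 in snf2-W935R, and 22 to 24 and 3 to 3 in snf2-Q928K. They ranged from 1 to 1 and 1 to 5 for SNF2 against SWI3, 18 to 19 and 3 to 5 for snf2-Q928K against snf2-W935R, 8 to 11 and 11 to 15 for snf2-Q928K against snf2del, and 0 to 4 and 0 to 1 for the difference between the deletions. The 5 lower in SNF2 came without SNF2 replicate 2, as did the 4 in the last comparison, and the 2 lower in swi3-E815X without swi3-E815X replicate 2. Over all genes these fits gave 185 lower in SNF2, 129 with a more positive change in snf2del and 313 lower in swi3-E815X.

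Deviations of same-numbered libraries correlated between -0.21 and 0.20 over both families, with 5 of 27 pairs above 0.1. Pairs with other numbers lay between -0.27 and 0.21, with 8 of 54 above 0.1. In the SWI3 family 8 of 9 same-numbered correlations were positive and 4 above 0.1. With other numbers 6 of 18 were positive there and 1 above 0.1. A library of that family correlated best with its own number in 12 of 18 cases, a hint from the data and not the design. In the SNF2 family the correlations gave no such hint, which does not show that its libraries were unpaired. There 1 of 18 same-numbered correlations was above 0.1, beside 7 of 36 with other numbers. With the replicate block ERG3 was called lower in swi3del (-0.16), and ERG26 in snf2-W935R (0.18) and ERG4 in the difference between the deletions (0.34) were not called.

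For the genes chosen by rule, changes not called in the first place changed sign in 19 cases. With median-ratio scaling these were ERG11 (-0.036) and HES1 (-0.089) in swi3del and ARE1 (0.025) in swi3-E815X, and with the SWI3 wild type as control HMG2 (-0.10) and ARE1 (-0.19) in snf2-W935R. With 1 library left out the changes ranged from -0.0001 to 0.20 for HES1 in swi3del. In swi3-E815X they ranged from -0.012 to 0.11 for ERG1, -0.069 to 0.085 for ARE1, -0.050 to 0.12 for UPC2 and -0.13 to 0.25 for HES1. For HMG2 in snf2-W935R the range was -0.0023 to 0.075, and for SNF2 against SWI3 it was -0.030 to 0.035 for ARE2 and -0.043 to 0.17 for HES1. For ERG1 in the difference between the deletions it was -0.097 to 0.026, and for ERG11 in snf2-Q928K against snf2del -0.043 to 0.13. Over all 32 genes, comparisons and alternatives, changes called in the first place kept direction and call in 2031 cases, lost the call in 91 and changed sign in 2, both of ERG3 in snf2del (-0.0032 after median-ratio scaling and -0.03 with the SWI3 wild type as control). Changes not called in the first place changed sign in 88 cases without a call and in 2 with one, ERG20 (-0.20) and ERG27 (-0.16) in swi3del after median-ratio scaling. TPM without read numbers leaves the counting error of low genes such as HES1 and UPC2 unknown.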
